A study of Homo sapiens with 12 samples.

Results

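The genes described here are MCM2, MCM3, MCM4, MCM5, MCM6 and MCM7, which encode the subunits of the replicative DNA helicase. They were chosen by name, with earlier results of these data known. All 6 were found among the 5097 protein-coding genes that appear in any of the study's 3 tables. All samples were of HEK293T, an established human line of embryonic kidney origin with the large T antigen of SV40. The tables hold no expression levels, so the cell line was not checked by markers. For m6A-seq, in which fragments of mRNA that carry N6-methyladenosine (m6A) are pulled down with an antibody and sequenced beside an input, cells received TRMT10A siRNA (siTRMT10A) or control siRNA (siCtrl), with 2 pulldown and 2 input samples in each condition. For CLIP-seq, in which a protein is crosslinked to RNA by ultraviolet light and recovered with the bound fragments, cells with TRMT10A overexpression gave 3 samples and cells with FTO overexpression gave 1. TRMT10A is a tRNA guanosine methyltransferase, and FTO removes the methyl group of m6A. The proteins were therefore captured at raised levels, with anti-Flag beads, while the m6A changes compare siTRMT10A with siCtrl samples. The m6A and TRMT10A values are not given per library, and the FTO values come from 1 library. The spread between replicates could therefore not be measured, and read depth is unknown. The counts and values below describe the authors' lists and carry no test beyond the authors' own.

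The MCM proteins form a ring of 6 related ATPases that is loaded onto DNA at replication origins before S phase. Joined by CDC45 and the GINS complex, the ring becomes the helicase that opens the double helix ahead of the polymerases. MCM4, MCM6 and MCM7 make up a core that can unwind DNA on its own in vitro, MCM2 also binds histones, MCM3 contacts the loading machinery, and the interface of MCM2 and MCM5 is the gate through which DNA enters the ring. Proliferating cells transcribe these genes together under the control of E2F factors. The MCM7 gene also hosts the microRNAs of MIR106B, MIR93 and MIR25 in an intron.

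All 6 MCM transcripts were crosslinked by both proteins. By comparison, 12.6% of 20056 protein-coding genes had a TRMT10A site, 15.5% had an FTO cluster, and 6.95% had both. Of the genes with a TRMT10A site, 55% also had an FTO cluster. Genes silent in these cells are part of every share of the 20056 protein-coding genes, here and below, and transcript level was not measured here. The helicase transcripts together held 38 distinct TRMT10A sites and 30 distinct FTO clusters. A differential m6A peak was listed for MCM2, MCM3 and MCM5 (3 of 6, against 8.56% of protein-coding genes) and for none of MCM4, MCM6 and MCM7. Since all members were bound by both proteins, these 3 had all 3 kinds of entry, as did 1.81% of protein-coding genes and 26% of those bound by both. The peaks did not share a sign. Each of the 3 peaks held a TRMT10A site within its exon blocks, as did 14.4% of peaks of protein-coding genes and 41.1% of those in TRMT10A-bound genes.

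The m6A values come first, since they carry the authors' test between conditions. The headers do not name the numerator of the fold change, so signs are given as deposited, and a positive value means higher after knockdown only if treated was set over control. In the authors' deposited table, the log2 fold change was -0.46 for the MCM2 peak (adjusted p = 9.77e-07), 0.69 for the MCM5 peak (adjusted p = 0.000355) and 0.12 for the MCM3 peak (adjusted p = 0.0224). A positive peak was thus listed for 2 of 6 members, against 5.72% of protein-coding genes, and a negative peak for 1 of 6, against 3.08%. Silent genes are part of both shares, and 26% of genes bound by both proteins had a peak of either sign. The authors' deposited table held 1346 positive peaks with a median of 0.70 and 677 negative peaks with a median of -0.52. By the authors' deposited table, 48.4% of positive peaks had a smaller value than MCM5 and 40.6% of negative ones were smaller in size than MCM2, so both were near the middle of their sign. The MCM3 change was among the smallest listed in the authors' deposited table, with 5 of the 1346 positive peaks below it. The table lists only peaks that passed, with the largest adjusted p at 0.0501. A member without a peak may have had no m6A peak, or one that did not differ.

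How strongly each peak was enriched in the pulldown followed another order. The authors' deposited table gave a fold enrichment over input of 12.7 for the MCM3 peak, 8.53 for the MCM2 peak and 2.36 for the MCM5 peak, beside a median of 4.91 for the 2023 peaks. In the authors' deposited table, 84.1% of peaks were less enriched than MCM3 and 23.5% less than MCM5. Among the MCM peaks, the most enriched thus had the smallest change between conditions in size, and the least enriched had the largest. Whether enrichment and change are related over the 2023 peaks was not tested. Since only peaks that passed the authors' test are listed, the order of the MCM peaks cannot decide this.

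**Figure D1:**
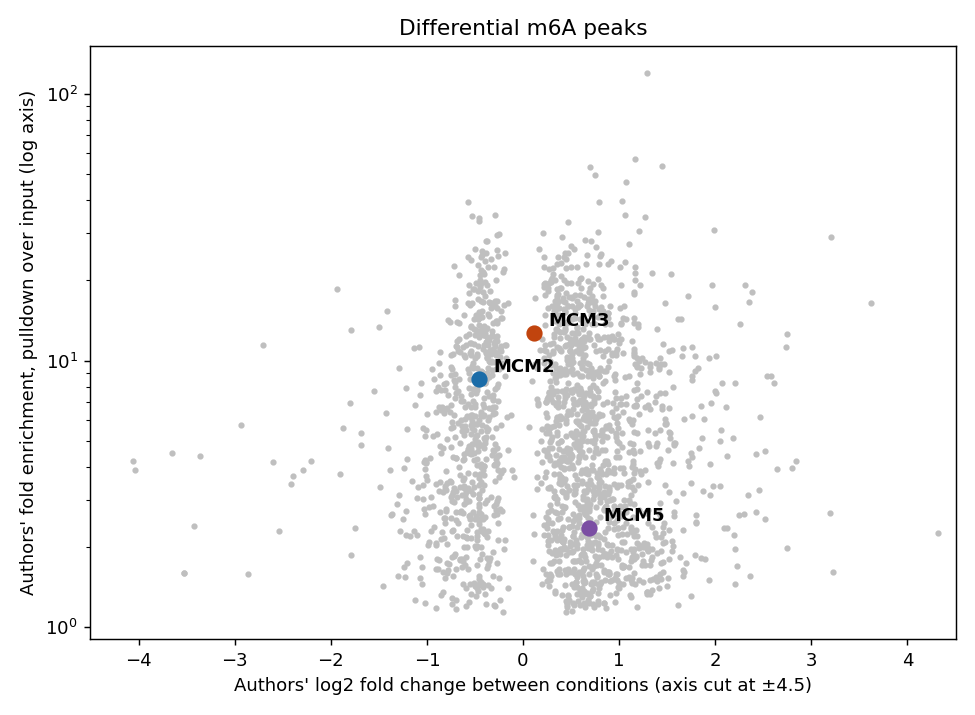
Differential m6A peaks of the authors' deposited table, with the log2 fold change between conditions on the horizontal axis and the fold enrichment of pulldown over input on a log vertical axis. Grey points are all 2023 peaks except 13 outside ±4.5, and the coloured points show MCM2 at -0.46, MCM3 at 0.12 and MCM5 at 0.69.

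All 3 peaks reached the last exon of the transcript to which the TRMT10A site inside them was annotated. Coordinates are those of hg38. For m6A peaks and TRMT10A sites they are counted from 1. FTO clusters are given as deposited, and whether their starts count from 0 or 1 is not stated, so that a start, or a distance measured from it, may be off by 1 base. The MCM2 peak was on the plus strand of chromosome 3 from 127621162 to 127622135, in 2 blocks of 67 and 473 bases, and ended 301 bases before the end of the RefSeq gene span. On the minus strand of chromosome 6, the MCM3 peak ran from 52264014 to 52267865 and reached 1 base past the end of the RefSeq gene span. It had 4 blocks with 930 bases in all, of which 773 were in the last block. The MCM5 peak was a single block of 270 bases on the plus strand of chromosome 22, from 35424233 to 35424502, in the last of the 17 exons of its annotated transcript. The RefSeq span of MCM5 runs on to 35455031, so that in the span as a whole the peak is not at the end. TRMT10A sites inside these blocks were at 127621906 to 127621908 in MCM2 (height 23), at 52264577 to 52264580 in MCM3 (height 30) and at 35424283 to 35424286 in MCM5 (height 18). The authors' annotation put the MCM3 and MCM5 sites in the 3′ UTR of the last exon, and the MCM2 site in the last exon of a noncoding transcript of the gene, NR_073375. Among all differential peaks of protein-coding genes, 14.4% held a TRMT10A site, and among the 681 peaks of TRMT10A-bound genes, 41.1% did. Genes with many sites and peaks with many bases have more chances of this, which was not adjusted for. An FTO cluster lay inside 1 of the 3 peaks, that of MCM5 (17.7% of all peaks of protein-coding genes). That cluster ran from 35424386 to 35424436, in the 3′ UTR, with 3 conversion events.

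The TRMT10A list gives each site a peak height, the authors' own score, which was used only to rank sites within this list. In the list, heights start at 16, and the median over sites in protein-coding genes was 20. Among the 38 MCM sites heights ran from 16 to 36 with a median of 21.5, and 23 of them reached the list median. The highest MCM site was matched or exceeded by 8.14% of protein-coding sites. All members had more sites than the median bound gene, which had 1: MCM2 had 9, MCM3, MCM4 and MCM7 had 8 each, MCM5 had 3 and MCM6 had 2. Of 2534 bound protein-coding genes, 90 had 8 or more sites.

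MCM7 carried the highest site of the helicase, 36, at 100099718 on the minus strand of chromosome 7, in exon 3 of NM_005916. The next were 100097914 to 100097916 (height 32), 100098246 (27), 100099097 to 100099099 (26) and 100095819 (21). The lowest were 100096117 to 100096118 (20), 100098623 to 100098627 (18) and 100099364 to 100099366 (17). All were in coding exons. The 8 sites lay between 1679 and 5578 bases from the start of a gene span of 8670. No TRMT10A site was listed in the remaining 3′ part, where the microRNA hairpins lie. MCM4, on the plus strand of chromosome 8, had a narrower range of heights, from 16 to 25 with a median of 20. Its coding sites were in exon 2 (47961614 to 47961621, height 25), exon 7 (47964616, 17), exon 10 (47969976 to 47969978, 23), exon 13 (47972977, 21), exon 14 (47974930 to 47974931, 23) and exon 16 (47976759 to 47976765, 17). The 3′ UTR in exon 16 held the other pair, at 47977567 (19) and at 47977713 to 47977717 (16). MCM6, on the minus strand of chromosome 2, had the fewest: one in exon 4 (height 23, at 135868761) and one in the 3′ UTR (height 22, at 135840789 to 135840790). They lay 7682 and 35653 bases from the start of a gene span of 36818 bases.

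MCM2 had its 9 sites in 9 different exons of 16, from exon 3 to the last, with heights of 17 to 28. The highest was in exon 11, at 127617347 to 127617350. Toward the 5′ side lay those in exon 3 (127604650, height 26), exon 5 (127606206, 23), exon 8 (127608957, 23), exon 9 (127615906 to 127615908, 19) and exon 10 (127617000 to 127617003, 17). Those in exon 12 (127617993 to 127617999, 18), exon 14 (127620799, 18) and the last exon (23) followed. MCM3 likewise had 8 sites in 8 of 16 exons. Its highest was in the first exon (height 35, at 52284648, only 94 bases from the start of the gene span), followed by exon 3 (31, at 52282099 to 52282100) and by the site in the 3′ UTR (30) that lies inside the m6A peak. The lower ones were in exon 12 (52269140, height 26), exon 4 (52279483 to 52279484, 21), exon 9 (52273867 to 52273872, 19), exon 2 (52282709 to 52282710, 17) and exon 7 (52277124 to 52277137, 16). MCM5, the partner of MCM2 at the gate, had sites in exon 5 (35406603 to 35406605, height 22), exon 6 (35408494 to 35408500, 18) and exon 17 (35424283 to 35424286, 18). The authors' p for a site was at its floor of 1.00e-100 for every MCM2, MCM3 and MCM5 site and ranged up to 2.37e-04 in MCM7, at the site in exon 4 with height 17.

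**Figure D2:**
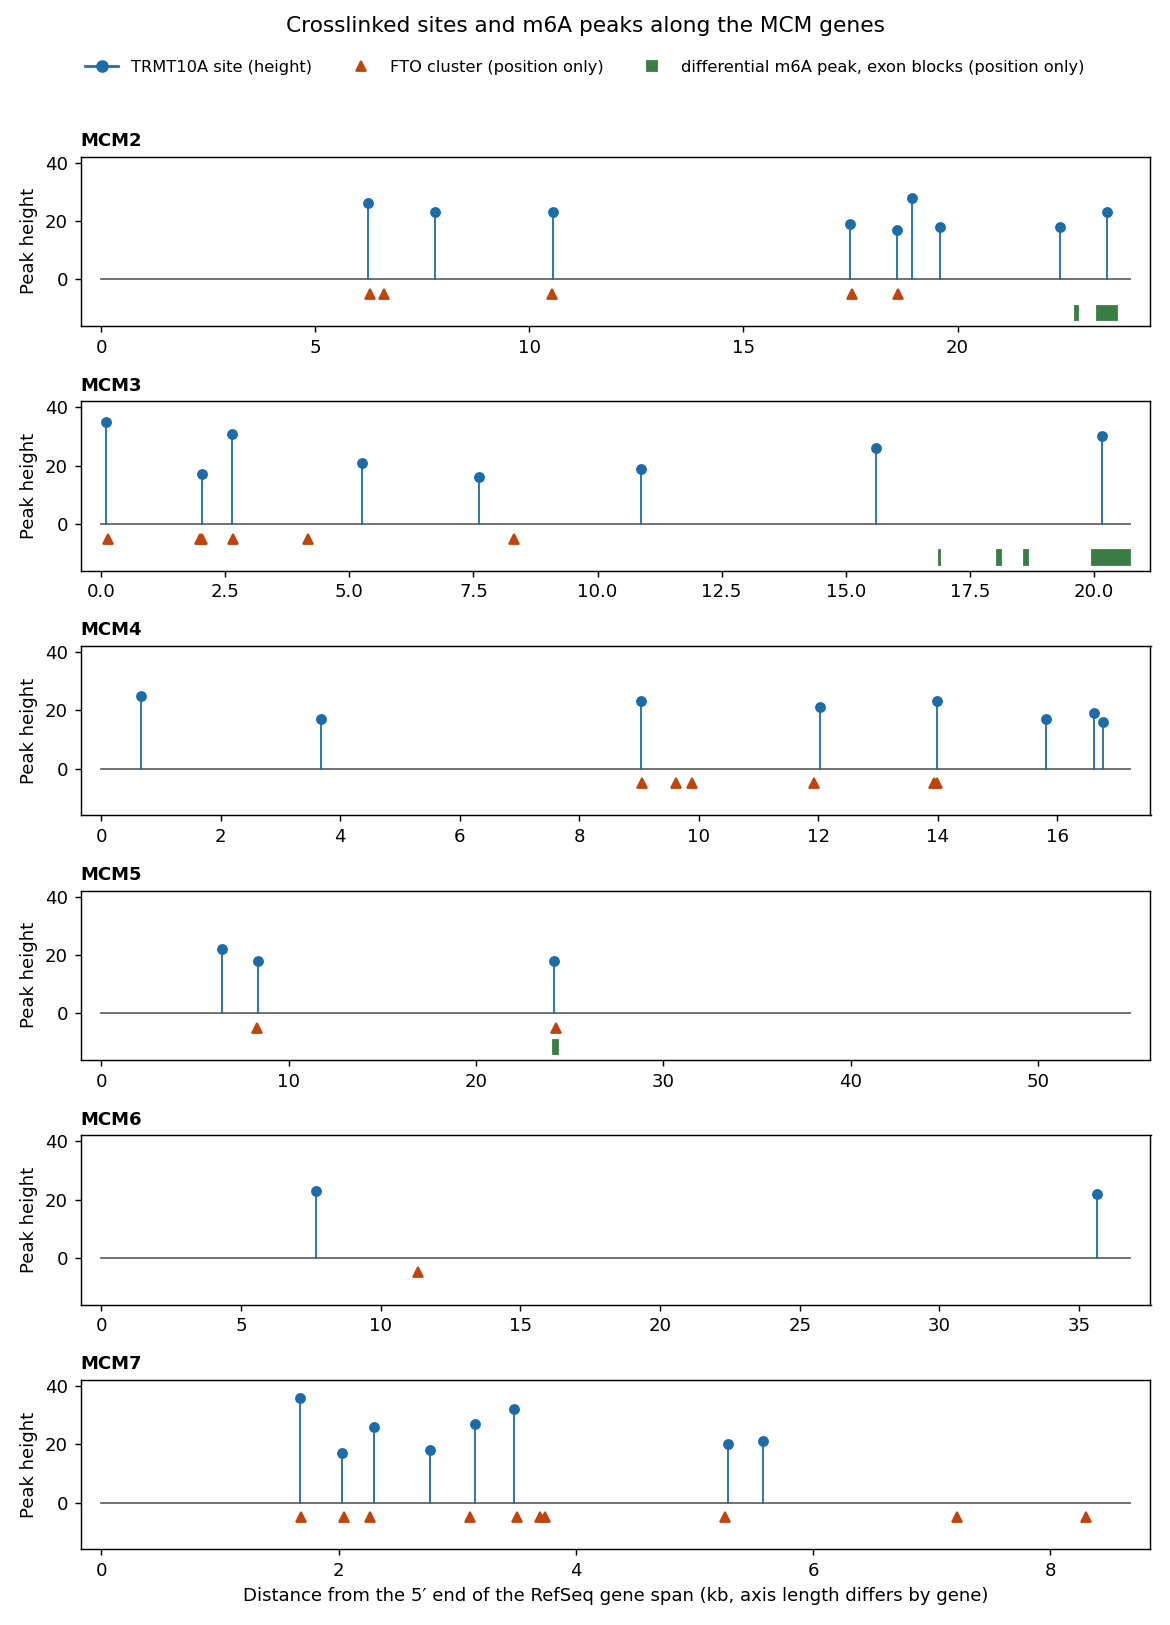
Positions of TRMT10A sites (blue stems, with the peak height on the vertical axis), FTO clusters (orange triangles) and exon blocks of differential m6A peaks (green boxes) along each MCM gene, as the distance in kb from the 5′ end of the RefSeq span. TRMT10A sites are spread over the length of MCM2, MCM3 and MCM4, and the m6A peaks of MCM2, MCM3 and MCM5 each lie under the last TRMT10A site of the gene.

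By region, 32 of the 38 TRMT10A sites (84.2%) were in coding exons, 5 in 3′ UTRs and 1 in the noncoding exon named above. Over all protein-coding genes 64.4% of sites were in coding exons, 14.4% in 3′ UTRs and 12.2% in introns. No MCM site was intronic. MCM2 and MCM7 were the members with no site annotated to a 3′ UTR.

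The FTO list counts conversion events, base changes read at crosslinked positions, in each cluster. MCM7 had 10 clusters, MCM3 and MCM4 had 6 each, MCM2 had 5, MCM5 had 2 and MCM6 had 1, whereas the median FTO-bound gene had 1. Both proteins therefore had their fewest sites on MCM5 and MCM6. Of 3103 FTO-bound protein-coding genes, 111 had at least as many clusters as MCM7. Events per cluster ran from 2 to 19 with a median of 3, beside a median of 2 over all clusters in protein-coding genes. With 1 library, no spread can be given for these counts.

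**Figure D3:**
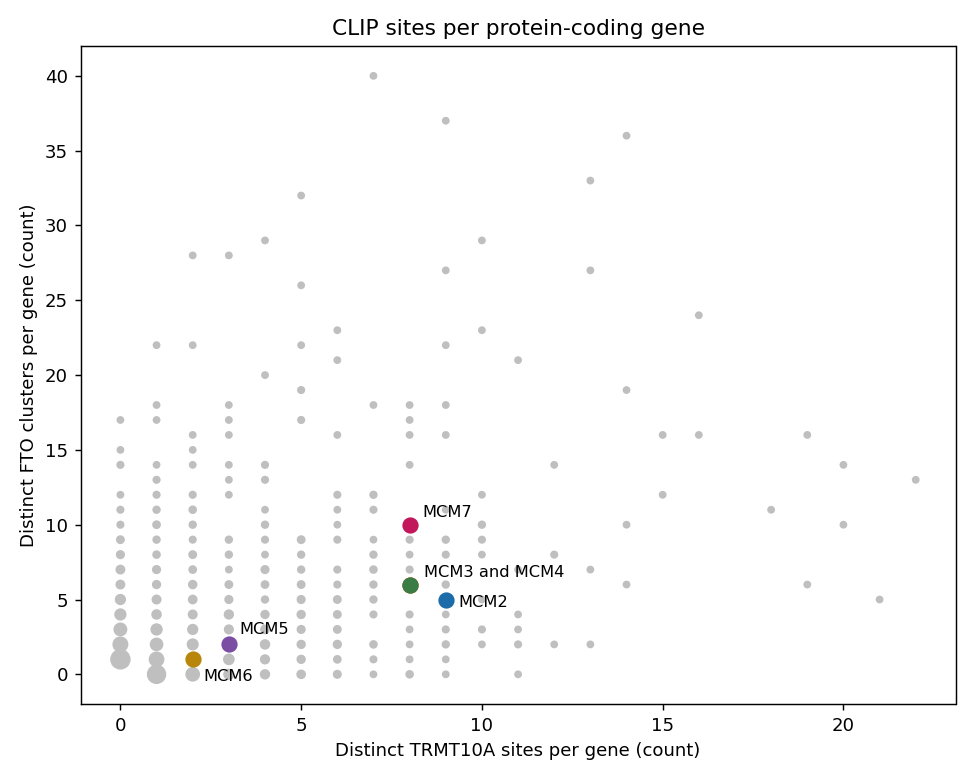
Distinct TRMT10A sites (horizontal axis) and distinct FTO clusters (vertical axis) per protein-coding gene with at least one of them. Grey dots grow with the number of genes at that pair of counts, and the coloured dots place MCM7 at 8 and 10, MCM3 and MCM4 at 8 and 6, MCM2 at 9 and 5, MCM5 at 3 and 2 and MCM6 at 2 and 1.

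The cluster with the most events was in MCM7 (19, at 100098281 to 100098298), and 1.77% of clusters in protein-coding genes had as many or more. The next in MCM7 had 7 events each, at 100097685 to 100097712 and at 100093072 to 100093115, then 6 at 100099701 to 100099733 and 5 at 100097648 to 100097674. The remaining MCM7 clusters were 100099118 to 100099147 (4 events), 100097878 to 100097910 (3), and 100099342 to 100099368, 100096125 to 100096157 and 100094173 to 100094195 (2 each). MCM6 had its 1 cluster, with 5 events, at 135865065 to 135865116. In MCM3 the clusters were 52282695 to 52282733 (5 events), 52282745 to 52282768 (4), 52282064 to 52282097 and 52276409 to 52276439 (3 each), and 52284601 to 52284630 and the intronic 52280570 to 52280591 (2 each). MCM4 had 4 events at 47972865 to 47972888 and at 47974845 to 47974901, 3 at 47969960 to 47970010 and at 47970822 to 47970844, and 2 at 47970553 to 47970586 and at 47974915 to 47974943. MCM2 had 3 events at 127604994 to 127605024, and 2 each at 127604667 to 127604696, 127608927 to 127608972, 127615921 to 127615953 and 127617008 to 127617037. The MCM5 clusters had 4 events, at 35408461 to 35408482, and 3, in the 3′ UTR. Most clusters of these members thus had few events, with a median of 3 beside 2 over all clusters in protein-coding genes. Of the 30 clusters, 28 (93.3%) were in coding sequence, 1 in the 3′ UTR of MCM5 and 1 in an intron of MCM3. Over all protein-coding genes 59.2% of clusters were in coding sequence and 28.3% in 3′ UTRs.

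Many FTO clusters of these transcripts fell close to a TRMT10A site. At least 1 base was shared by 6 of the 30 FTO clusters and a TRMT10A site on the same strand, while 8.02% of clusters in all protein-coding genes and 13% of those in genes bound by both proteins did so. Within 100 bases of a TRMT10A site there were 20 of 30 clusters (66.7%), against 21.8% in all protein-coding genes and 35.3% in genes bound by both. Members with many sites have more chances of a near pair, and this was not adjusted for. The 6 shared positions were in MCM7 (2), MCM4 (2), MCM2 (1) and MCM3 (1). The highest TRMT10A site of the helicase, at 100099718 in MCM7, was one of them and lay inside the cluster of 6 events.

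The other shared positions in coding exons were 100099364 to 100099366 in MCM7 (height 17, 2 events), 127608957 in MCM2 (height 23, 2 events) and 52282709 to 52282710 in MCM3 (height 17, 5 events). In MCM4 they were at 47969976 to 47969978, with height 23 and 3 events, and at 47974930 to 47974931, with height 23 and 2 events. A further 9 clusters were at most 20 bases from a TRMT10A site without touching it. Among these, the distance was 2 bases at the MCM3 site of height 31, 4 bases at the MCM7 site of height 32, and 5 bases at the MCM2 site of height 17. The MCM7 cluster of 19 events was 35 bases from the site of height 27. The other 10 clusters were farther than 100 bases in genomic distance. They were the MCM6 cluster (3645), 4 in MCM7 (202, 240, 1624 and 2704), 2 each in MCM3 (685 and 1086) and MCM4 (575 and 844), and 1 in MCM2 (344). MCM5 and MCM6 had no cluster that shared a base with a TRMT10A site. Read as counting from 0, the starts gave the same 6 shared clusters and 19 in place of 20 within 100 bases.

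**Figure D4:**
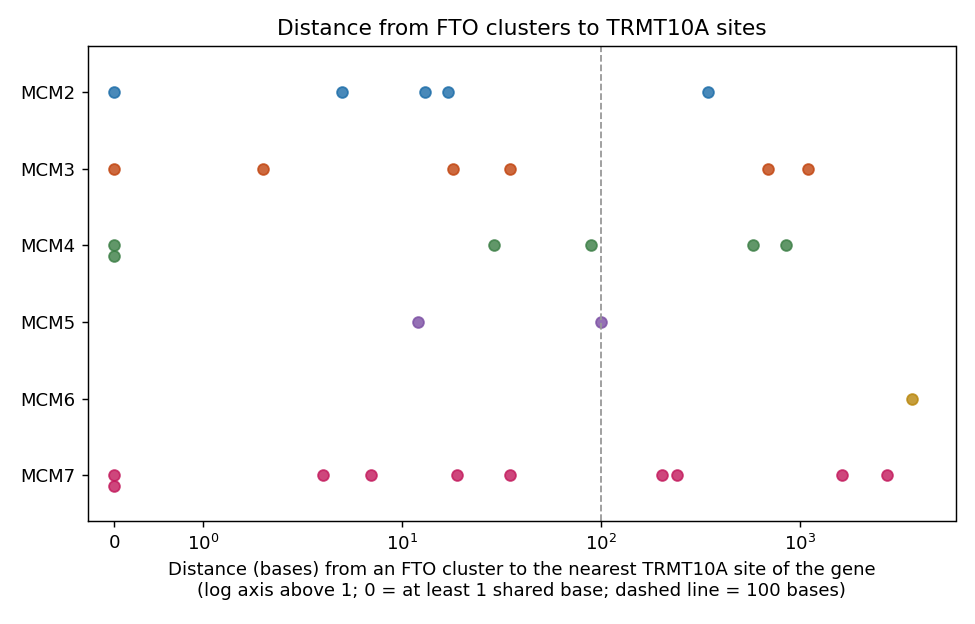
Distance in bases from each of the 30 FTO clusters (one point each) to the nearest TRMT10A site of the same gene, on a log axis above 1, where 0 means at least 1 shared base and the dashed line marks 100 bases. Points at 0 are in MCM2, MCM3, MCM4 and MCM7, and the single MCM6 point is at 3645.

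The intron of MCM7 with the microRNA hairpins added a separate FTO signal, listed under the microRNAs and not under MCM7. A single mature strand of each hairpin is shown, and FTO clusters lay on 2 of these strands. None was listed on the other mature strand of any of the hairpins. Sequences are from RefSeq (GRCh38.p14, chromosome 7, minus strand), all 3 hairpins were matched by symbol, and capitals mark the seed, bases 2 to 8.
hsa-miR-106b-5p: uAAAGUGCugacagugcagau
hsa-miR-93-5p: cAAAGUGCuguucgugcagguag
hsa-miR-25-3p: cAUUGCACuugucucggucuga
The seed AAAGUGC is shared by hsa-miR-106b-5p and hsa-miR-93-5p, which belong to the miR-17 family, while hsa-miR-25-3p has the seed AUUGCAC.

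The FTO cluster at 100093575 to 100093592 covered bases 1 to 18 of hsa-miR-25-3p (1 to 17 if starts count from 0), seed included, with 22 conversion events. This was more than any cluster in the MCM7 coding sequence. The cluster at 100093814 to 100093826 covered bases 12 to 23 of hsa-miR-93-5p, outside its seed, with 6 events. No FTO cluster was listed at MIR106B, and the nearest in the host gene was 99 bases from its hairpin with 2 events. Of 79 clusters listed under mature microRNA names, 33 had 22 or more events and 53 had 6 or more, so neither stood at the top of that class. TRMT10A had 0 of its 5650 sites at an annotated microRNA hairpin anywhere in the list, beside 88 of the 9579 FTO clusters. The TRMT10A peaks were called on pooled tags and the FTO clusters are listed per transcript. Whether the counts differ through binding or through the making of the lists was not tested. The authors' annotation names MIR106B as the nearest promoter of the MCM7 sites at 100095819 and 100096117, but both are in a coding exon, at least 1745 bases from that hairpin.

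Other genes of DNA replication give the surroundings of the helicase. Of 57 genes in 4 lists, 16 had a TRMT10A site, 22 had an FTO cluster and 11 had both, beside 12.6%, 15.5% and 6.95% of all protein-coding genes. None of the 4 MCM-related genes outside the ring (MCM8, MCM9, MCM10 and the binding protein MCMBP) had a TRMT10A site, and 2 had FTO clusters, MCM8 with 2 and MCMBP with 1. Of 9 origin licensing genes 2 were TRMT10A-bound, of 13 helicase activation genes 3, and of 31 replisome genes 11. The most sites of both kinds were in the polymerase POLE (3 TRMT10A sites and 6 FTO clusters) and the helicase RECQL4 (8 and 0). The licensing factor CDT1 (4 and 2), the sliding clamp PCNA (3 and 3) and the polymerase POLD1 (5 and 0) followed. MCM2, MCM3, MCM4 and MCM7, with 14 to 18 sites each, all had more than any gene of these lists.

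Differential m6A peaks were listed for 8 of the 57 genes, 2 positive and 6 negative. Of all protein-coding genes, 8.56% had a peak, 5.72% a positive and 3.08% a negative one. In the authors' deposited table, the clamp PCNA (0.32, adjusted p = 1.74e-07) and the polymerase subunit POLD2 (0.41, adjusted p = 0.000933) were positive. The authors' deposited table gave the licensing inhibitor GMNN -0.61 (adjusted p = 1e-07), the origin recognition subunit ORC6 -0.54 (adjusted p = 0.000204) and the kinase CDC7, which phosphorylates the MCM ring, -0.53 (adjusted p = 4.79e-05). Negative values were also listed in the authors' deposited table for the polymerase subunit POLD3 (-1.22), the clamp loader subunit CHTF8 (-0.46) and the single-strand binding subunit RPA1 (-0.30). A TRMT10A site lay inside 1 of these 8 peaks, that of GMNN (14.4% of all peaks of protein-coding genes). An FTO cluster lay inside 2 of them, those of GMNN and PCNA (17.7% of all). The lists were chosen with earlier results of these data known, and no test was made of their signs.

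Among the 1028 genes outside the helicase that were bound by both proteins and had no m6A peak, the closest to MCM7 in numbers of sites was CCT7, a chaperonin subunit, with the same 8 TRMT10A sites and 10 FTO clusters. ALDOA (7 and 9) and DDX3X (6 and 10) followed at a summed difference of 2. That difference was shared by 8 genes, and these names were the first in alphabetical order. The highest TRMT10A site had a height of 31 in CCT7, 49 in ALDOA and 24 in DDX3X.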

How the data were processed

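Per the labels' protocols, m6A-seq used polyadenylated RNA depleted of ribosomal RNA and a stranded kit, and CLIP lysates were treated with RNase T1 and captured on anti-Flag beads before small RNA library preparation. The submitters' processing notes name hg38 and DESeq2, and what DESeq2 was used for, and which aligner was run, are not given in the sources used. The deposited m6A table holds differential peaks with a log2 fold change, a fold enrichment (ratio) over input, and p-values as logarithms, whose unit was recorded as other, per the file headers. The deposited TRMT10A peaks were called on pooled tags, per the file headers, with a peak height as a signal. The deposited FTO table gives a count of conversion events per cluster and transcript, per the file headers. No deposited m6A or TRMT10A value belongs to a single library, and the FTO values come from the 1 FTO library.

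Members were taken by peak name, by gene ID in the TRMT10A peak name and by symbol in the FTO table. Positions repeated across lines counted once. Whole-list counts used the 20056 protein-coding genes of a GRCh38.p14 table, leaving out sites in small RNA genes. A site took the gene of its peak name where the gene span holds it, otherwise that of its annotated transcript, and 17 m6A peak names matched no gene. Sharing needed 1 base on the same strand. Distance counts from nearest end to nearest end, and bedtools 2.31.1 gave the same 640 shared clusters. On simulated data, 200 of 200 planted overlaps and 410 of 410 within 100 bases were recovered.

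Members and lists were chosen with earlier results of these data known. All members and their sites are named, as are replication genes with an m6A peak, the 5 with the most sites, and up to 3 genes most like MCM7. Sequence motifs in clusters and proteins were planned and not run, since no such sequences were used here. Python 3.11.15, numpy 2.4.6 and matplotlib 3.10.9 were used.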

Additional observations from a re-analysis of the deposited data

How the results depend on the processing

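No paired analysis was possible because the m6A and TRMT10A values are not given per library and FTO had 1 library. For the same reasons no replicate could be left out. Of 16 alternatives to the 5 counts, 10 stayed within 1.5 times the count reported. Requiring a log2 fold change of 0.5 or more in either direction, 1 of the 3 m6A peaks remained, that of MCM5. At an authors' adjusted p of at most 0.01 there were 2, without MCM3. With heights of at least the list median of 20, 23 of 38 TRMT10A sites were left, and all 6 members kept one. Counted per transcript the FTO clusters were 56. The median over all distinct clusters of the list, not only those in protein-coding genes, was 3 events. Clusters with at least 3 events numbered 19, and those with at least 5 numbered 7, in 3 of the members. A gap of up to 100 bases raised the shared clusters from 6 to 20. Of 2 alternatives chosen after seeing the data, counting the microRNA clusters with MCM7 gave 32, and reading FTO starts as counted from 0 left 6 shared. Read depth is unknown, and what it limits was not tested.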

Other observations

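Neither protein lay mostly on one side of the other. Of the 20 FTO clusters of MCM genes within 100 bases of a TRMT10A site, the nearest site was inside the cluster for 6, upstream in the direction of transcription for 7 and downstream for 7. Seen from the other side, 18 of the 38 TRMT10A sites (47.4%) had an FTO cluster within 100 bases, beside 36.4% of the 3821 sites in genes bound by both proteins. Genes with many FTO clusters give a site more chances of this, which was not adjusted for. None of the 6 RefSeq promoter windows of the MCM genes, of 300 bases each, held a TRMT10A site, an FTO cluster or an m6A peak. The MCM3 site 94 bases from the start of the gene span lay outside these windows. Empty windows therefore do not mean 5′ ends without sites. The share of empty promoter windows over all genes was not counted, so this is not a result particular to the MCM genes.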
